A study of Homo sapiens with 24 samples.

Results

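The genes described here are 9 interferon-stimulated genes, IFIT1, IFIT2, IFIT3, ISG15, MX1, OAS1, IRF1, IFI6 and IFITM3, chosen by their symbols from the 60675 genes of the deposited count table, 19586 of them protein-coding. All 9 were found in the table, and all 9 passed the filter on low counts in every comparison. RNA was sequenced from SW1783, a human astrocytoma cell line, after 24 h with extracts of Schisandrae Fructus, the dried fruit of a Schisandra vine used in traditional Asian medicine. The 24 libraries form 8 groups of 3, and the study asked how a water and an ethanol extract of the same fruit differ in what they do to these cells.

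In batch A, cells received the hot water extract (WESF) at 20 (low), 100 (medium) or 500 µg/mL (high), or the vehicle (vehicle A, 0.1% DMSO). In batch B they received the 70% ethanol extract (EESF) at 12.4 (low), 62 (medium) or 310 µg/mL (high), or the same vehicle (vehicle B). Every WESF library is of batch A and every EESF library of batch B, and the mass doses differ, so extract, dose and batch cannot be told apart in a comparison between the extracts. The paper set the high doses by a preliminary toxicity screen. It reports no toxicity of WESF at 500 µg/mL, and gives 310 µg/mL as the IC20 of EESF, its dose of 20% inhibition. The high doses thus also differ in toxicity, whose part in the results was not tested. The labels name no virus, interferon or other immune stimulus in any group, so the levels below are those of unstimulated tumour cells of 1 line. Depth, the total expected count of a library, lay between 18727797 (a vehicle B library) and 32567395 (an EESF high-dose library). Nothing in the labels says that the 3 libraries of a group came from separate cultures, so p-values measure the spread between these libraries, which may be technical.

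The labelled cell type was checked against 11 astrocyte or glioma markers. VIM, CD44, SLC1A3, SOX9 and NES averaged at least 1 CPM (counts scaled to a common library total) over the 24 libraries. GFAP, S100B, AQP4, ALDH1L1, SLC1A2 and SOX2 averaged below 1 CPM, so several defining markers of mature astrocytes were near 0 in this line.

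Interferons are secreted cytokines that warn cells of infection. Type I and type III interferons bind surface receptors whose JAK kinases phosphorylate STAT proteins, among them STAT2, which joins IRF9 in the complex ISGF3, and this complex binds the interferon-stimulated response element (ISRE) in the promoters of its target genes. The products of these genes block virus entry, translation and genome replication. Many are also transcribed at a low level without added interferon, in glial tumour cells as in other cells. IFIT1, IFIT2 and IFIT3 are relatives from a gene cluster on chromosome 10 whose proteins bind viral RNA or assemble with each other. ISG15 is a ubiquitin-like protein that is attached to other proteins, MX1 is a GTPase that traps viral nucleocapsids, and OAS1 makes the oligoadenylates that activate RNase L. IRF1 is a transcription factor that drives interferon and interferon-gamma responses, IFI6 is a small membrane protein linked to cell survival and to flavivirus resistance, and IFITM3 stops enveloped viruses from fusing with endosomes.

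The promoter sequences below are shown because the ISRE is the element that defines this gene class. They are from RefSeq (GRCh38.p14), 5′ to 3′ on the strand of the gene, and end upstream of the annotated start. Capitals mark matches to a simplified ISRE, GAAA, then 2 bases of any kind, then GAAA, or on the other strand TTTC, 2 bases of any kind and TTTC.
IFIT1, chr10:89392492-89392544, plus strand: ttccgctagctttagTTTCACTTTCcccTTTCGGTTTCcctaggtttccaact
IFIT3, chr10:89327826-89327899, plus strand: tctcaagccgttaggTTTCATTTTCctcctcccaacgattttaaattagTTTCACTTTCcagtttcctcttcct
ISG15, chr1:1013369-1013414, plus strand: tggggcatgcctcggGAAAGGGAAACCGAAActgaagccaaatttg
IFI6, chr1:27672261-27672363, minus strand: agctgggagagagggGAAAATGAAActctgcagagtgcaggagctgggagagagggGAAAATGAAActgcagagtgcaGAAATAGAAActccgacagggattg
IFITM3, chr11:320871-320927, minus strand: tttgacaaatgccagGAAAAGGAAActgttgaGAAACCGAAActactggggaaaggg

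IFIT1 carries a pair of matches that begin 116 and 103 bases upstream of its start, IFI6 has 3 at 156, 115 and 93 bases, and the 2 matches of ISG15 overlap each other, at 113 and 107 bases. The letters were searched on both strands in windows from 250 bases before to 50 after each start. They occurred in 3.57% of the 35116 promoter windows of the table. Of the 9 genes, 8 had a window there and 6 had a match in at least 1 of their windows. MX1 has 3 windows, with 1 match just inside the transcript of the first and 1 at 196 bases upstream of another. The OAS1 and IRF1 windows held none, but each held TTC, 3 bases of any kind and GAA once, which reads alike on both strands and is a simplified site for STAT dimers that 7.66% of all windows contain. The MX1 window with the match at 196 bases held this site once as well. A match describes letters only and is not evidence of binding.

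The positions that follow are whole genes on GRCh38 in GENCODE release 44, with the identifiers of the count table. The IFIT genes are neighbours on the plus strand of chromosome 10, with IFIT2 (ENSG00000119922) at chr10:89283694-89309271, IFIT3 (ENSG00000119917) at chr10:89327307-89377473 and IFIT1 (ENSG00000185745) at chr10:89392546-89406487. ISG15 (ENSG00000187608, chr1:1001138-1014540, plus strand) and IFI6 (ENSG00000126709, chr1:27666064-27672212, minus strand) are both on chromosome 1. MX1 (ENSG00000157601) is at chr21:41420020-41470071 and OAS1 (ENSG00000089127) at chr12:112905856-112933219, both on the plus strand. IRF1 (ENSG00000125347) is at chr5:132440440-132508719 and IFITM3 (ENSG00000142089) at chr11:319676-329475, both on the minus strand.

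Per kilobase of the canonical transcript, the mean levels in vehicle A spanned a wide range. These CPM use library sizes corrected by TMM factors. IFITM3 stood first at 554.9 ± 57.6 CPM per kb (SD, n = 3), followed by ISG15 at 33.36 ± 4.67 and IFI6 at 27.07 ± 0.398 CPM per kb. IFIT3 (9.492 ± 1.12), IRF1 (6.921 ± 0.195) and MX1 (3.314 ± 0.338 CPM per kb) came next. IFIT1 (2.251 ± 0.181) and IFIT2 (2.134 ± 0.51 CPM per kb) were within 1 SD of each other, and OAS1 was the lowest at 0.3734 ± 0.0501 CPM per kb. The OAS1 level rests on 15 to 19 expected counts in a vehicle A library, and over all 24 libraries the gene had 2 to 31. No member differed between vehicle B and vehicle A by edgeR's quasi-likelihood test, which called 0 of 13001 genes (0.00%), with 371 genes and none of the 9 at an unadjusted p under 0.05, and DESeq2 also called none of the 9.

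**Figure D1:**
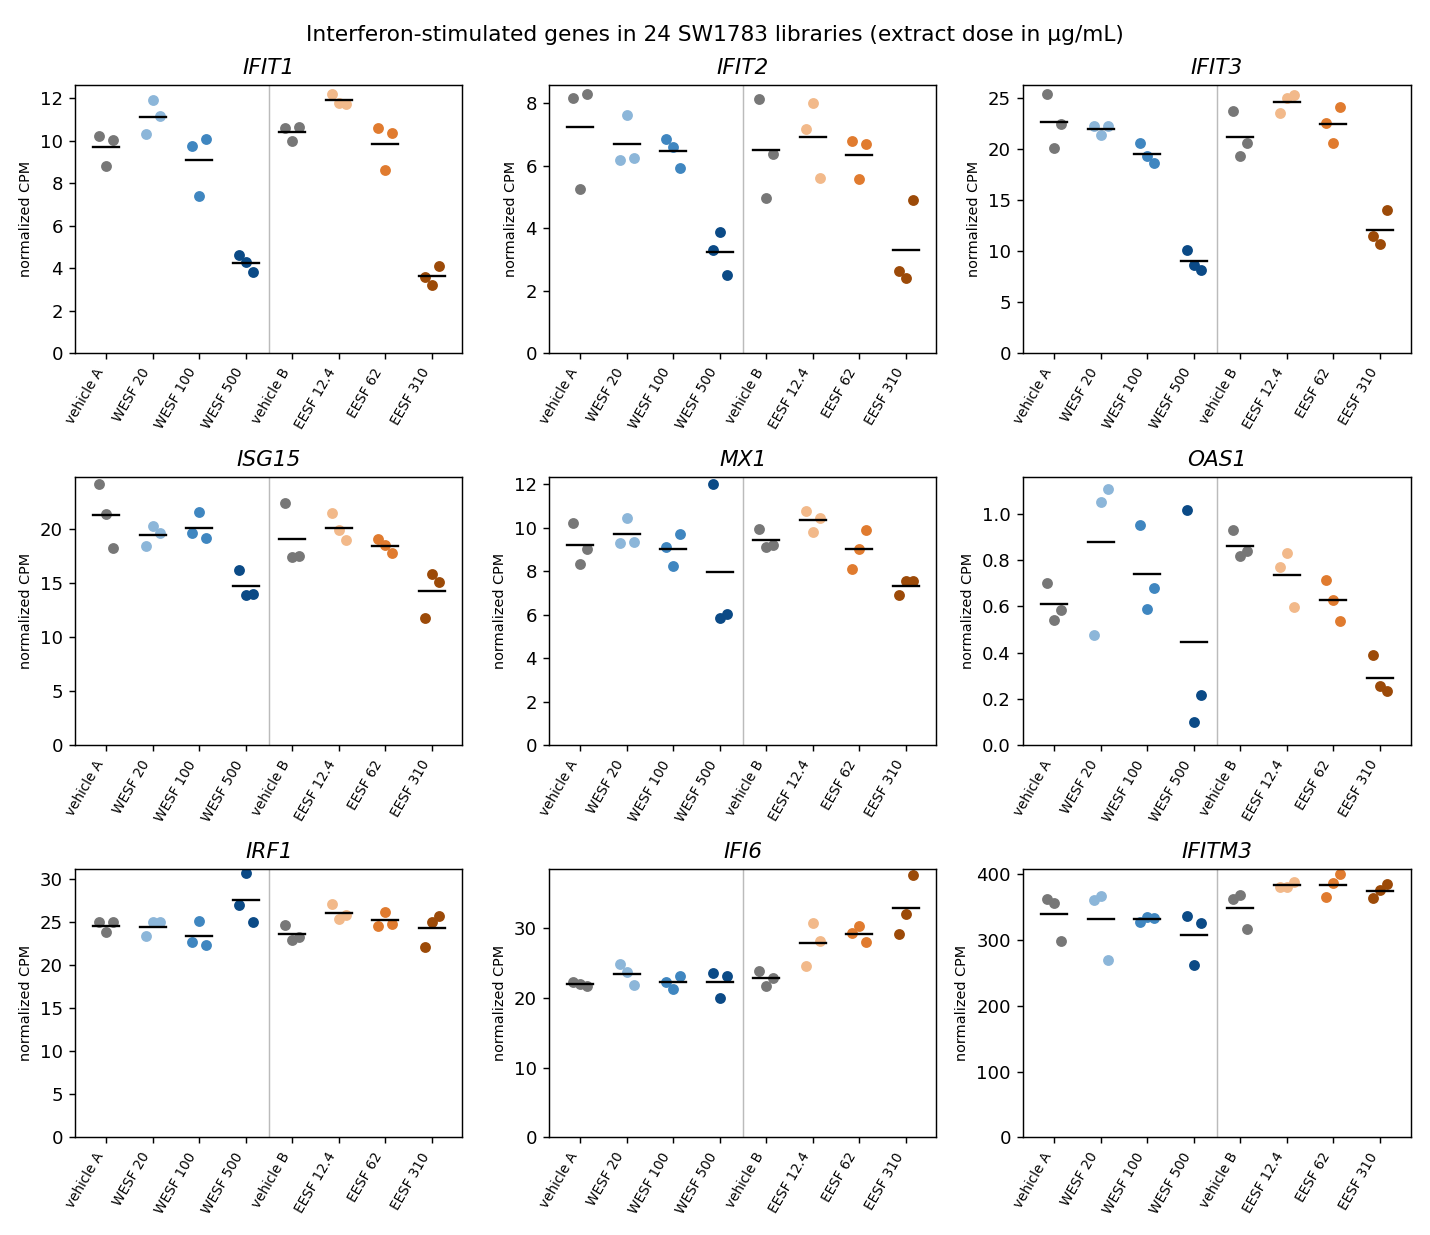
Normalized CPM (linear axis from 0) of the 9 genes in all 24 libraries, by group, with doses in µg/mL. Points are libraries, black lines are group means, and the grey vertical line separates batch A from batch B; IFIT1 and IFIT3 lie lowest at both high doses, and IFI6 is above vehicle B at each EESF dose.

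At the high doses the IFIT genes were the most reduced of the well-expressed members, in both batches, and ISG15 was reduced less. IFIT1 read 10.21, 8.789 and 10.05 CPM in the vehicle A libraries and 4.616, 4.287 and 3.811 CPM at the high dose of WESF. The groups did not overlap, and the high dose was at 43.8% of vehicle, a log2 fold change of -1.19 (SE 0.11, edgeR adjusted p = 4.49e-08). In batch B, IFIT1 read 10.62, 9.975 and 10.66 CPM in the vehicle and 3.57, 3.227 and 4.087 CPM at the high dose of EESF. That is 34.8% of vehicle, a log2 fold change of -1.52 (SE 0.11, edgeR adjusted p = 3.27e-07). These are bulk libraries, in which fewer cells of a type and less RNA per cell cannot be told apart.

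IFIT3, which binds and stabilises IFIT1, was the most reduced member at the high dose of WESF. It read 25.43, 20.11 and 22.51 CPM in vehicle A and 10.12, 8.673 and 8.191 CPM at the high dose, a log2 fold change of -1.33 (SE 0.095, edgeR adjusted p = 2e-09). In batch B it read 23.76, 19.29 and 20.6 CPM in the vehicle and 11.49, 10.74 and 13.99 CPM at the high dose of EESF, a log2 fold change of -0.81 (SE 0.1, edgeR adjusted p = 3.41e-05). Neither pair of groups overlapped, and the highest EESF library stood well under the lowest vehicle B library.

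IFIT2, a relative that has been tied to cell death as well as to virus defence, was noisier. It read 8.183, 5.245 and 8.296 CPM in vehicle A and 3.303, 3.893 and 2.497 CPM at the high dose of WESF (log2 fold change -1.17, SE 0.18, edgeR adjusted p = 2.04e-05). With EESF it read 2.616, 2.396 and 4.918 CPM, against 8.145, 4.962 and 6.364 CPM in vehicle B (log2 fold change -0.97, SE 0.25, edgeR adjusted p = 0.00492). The groups were apart in both batches, but the highest EESF library lay just under the lowest vehicle B library. IFIT2 shares 524 exon bases with the non-coding gene ENSG00000232110 on the same strand, so reads there could be credited to either.

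ISG15 read 24.18, 21.34 and 18.23 CPM in vehicle A and 16.18, 13.9 and 13.97 CPM at the high dose of WESF, a log2 fold change of -0.53 (SE 0.092, edgeR adjusted p = 6.55e-05). In batch B it read 22.37, 17.39 and 17.53 CPM in the vehicle and 11.81, 15.82 and 15.12 CPM at the high dose of EESF, a log2 fold change of -0.42 (SE 0.12, edgeR adjusted p = 0.00901). The groups were separate in each batch, but the fall was short of the 1.5-fold threshold used to define differentially expressed genes (DEGs).

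MX1 and OAS1 fell with EESF and had a divided reading with WESF. MX1 was 9.949, 9.106 and 9.211 CPM in vehicle B and 6.892, 7.541 and 7.576 CPM at the high dose of EESF (log2 fold change -0.36, SE 0.09, edgeR adjusted p = 0.00448). OAS1 was 0.9279, 0.8185 and 0.8373 CPM in vehicle B and 0.3888, 0.2556 and 0.2326 CPM at that dose (log2 fold change -1.55, SE 0.31, edgeR adjusted p = 0.000889), from 15 to 18 expected counts in the vehicle libraries and 7 to 11 in the treated ones. In neither gene did the groups overlap. MX1 shares 562 exon bases with TMPRSS2 on the opposite strand, so some reads there could belong to either.

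At the high dose of WESF, MX1 read 12.03, 5.864 and 6.045 CPM, against 10.21, 8.355 and 9.036 CPM in vehicle A. Replicate 1 was above every vehicle A library and the other two were below them all, so that the log2 fold change was -0.19 (SE 0.19, edgeR adjusted p = 0.384). OAS1 had the same split, with 1.016, 0.09856 and 0.219 CPM (24, 2 and 5 expected counts) against 0.7004, 0.5425 and 0.5842 CPM in vehicle A, and a log2 fold change of -0.39 (SE 0.5, edgeR adjusted p = 0.496). OAS2, a relative of OAS1 named after its values were seen, read 9.317, 4.583 and 4.205 CPM at that dose, with a log2 fold change of -0.35 (SE 0.2, edgeR adjusted p = 0.125). Leaving out 1 library at a time gave log2 fold changes of -0.63 to -0.02 for MX1, -1.88 to 0.03 for OAS1 and -0.83 to -0.14 for OAS2. The lowest of each was without replicate 1, where all 3 passed the test, but that library is the high one in these same genes, so this is a description and no evidence of a fall. The highest adjusted p values among these fits and the other alternatives were 0.945, 0.952 and 0.556. Replicate 1 was also the highest of its group for IFIT1, IFIT3 and ISG15, though below every vehicle A library in each. The median log2 difference from the vehicle A mean over 8 of the 9 genes (OAS1 left out for its low level) was -0.20 in replicate 1, -0.62 in replicate 2 and -0.59 in replicate 3, and over 33 other interferon-stimulated genes it was -0.23, -0.36 and -0.39. Mitochondrial transcripts made up 9.599%, 7.794% and 8.553% of the counts in replicates 1, 2 and 3, against 10.319% to 10.565% in vehicle A, so replicate 1 was nearest to the vehicle in this share too. The share was 8.726% to 10.052% at the medium and 8.499% to 11.36% at the low dose of WESF, where edgeR called none of the 9 genes. The part of this share in the result was not tested. With EESF the share at the high dose (11.195% to 11.961%) overlapped that of vehicle B (11.604% to 11.916%). Across the transcriptome, 2 of 12248 genes with a mean of at least 1 CPM were over 2-fold higher in replicate 1 than in both other libraries, OAS2 and SLX1A. For replicates 2 and 3 of that dose the same number was 2 and 6.

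IFI6 went the other way, and only with EESF did any dose pass the test. It read 23.87, 21.74 and 22.83 CPM in vehicle B, 24.6, 30.69 and 28.15 CPM at the low dose, 29.25, 30.33 and 28.05 CPM at the medium dose and 29.2, 32.05 and 37.55 CPM at the high dose. All 9 EESF libraries were above all 3 vehicle B libraries. The log2 fold changes were 0.28 at the low (SE 0.076, edgeR adjusted p = 0.0361), 0.36 at the medium (SE 0.062, adjusted p = 0.00164) and 0.53 at the high dose (SE 0.09, adjusted p = 0.000283). The step from the medium to the high dose, 0.18 on the log2 scale (SE 0.082, adjusted p = 0.0831), did not pass the test, and the low-dose call was lost in 4 of the 6 fits that left out 1 library. With WESF the high-dose libraries read 23.63, 20.01 and 23.08 CPM, against 22.3, 21.99 and 21.65 CPM in vehicle A (log2 fold change 0.02, SE 0.067, adjusted p = 0.807). IFI6 shares 216 exon bases with LINC02574 on the same strand, so reads there could be credited to either.

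IRF1 and IFITM3 stayed near their vehicle levels. IRF1 read 26.98, 30.7 and 25.05 CPM at the high dose of WESF, against 24.99, 23.8 and 25.0 CPM in vehicle A. The log2 fold change of 0.16 (SE 0.069, edgeR adjusted p = 0.0462) just passed the threshold, and it was lost with DESeq2 (adjusted p = 0.0892), with all genes of the table, with thinned counts and in 5 of the 6 fits that left out 1 library. With EESF IRF1 gave 0.04 on the log2 scale (SE 0.073, adjusted p = 0.635). IRF1 shares 2805 exon bases with the antisense gene IRF1-AS1, and the strand setting of the counting is not given in the sources used here, so their reads may be mixed. IFITM3 read 335.7, 261.6 and 325.6 CPM at the high dose of WESF, against 362.1, 356.5 and 298.5 CPM in vehicle A (log2 fold change -0.14, SE 0.08, adjusted p = 0.13), and 364.0, 375.3 and 385.3 CPM at the high dose of EESF, against 362.7, 367.6 and 316.1 CPM in vehicle B (log2 fold change 0.10, SE 0.061, adjusted p = 0.161). IFITM3 has fractional expected counts in 24 of 24 libraries, and its reads can be divided with near-identical relatives, so its values are uncertain.

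Counted together, at the high dose of WESF edgeR called 4 of the 9 genes lower (IFIT1, IFIT2, IFIT3, ISG15), 1 higher (IRF1) and 4 in neither direction. The background was high, since 68.9% of the 13129 genes tested were called, 34.6% lower and 34.3% higher. At the high dose of EESF, 6 were called lower (the same 4, MX1 and OAS1), 1 higher (IFI6) and 2 in neither direction, where 58.0% of 13092 genes were called, 28.7% lower and 29.3% higher. DEGs, with a fold change beyond 1.5 as well, were 3 of the 9 with WESF and 4 with EESF, all lower. Of all genes tested, 13.0% and 9.17% were lower DEGs, and 24.1% and 17.4% were DEGs in either direction. The median log2 fold change of the 9 was -0.39 with WESF and -0.42 with EESF, against 0.00 and 0.01 over all genes tested. A called gene was common at these doses, so the number called does not by itself set the 9 apart.

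**Figure D2:**
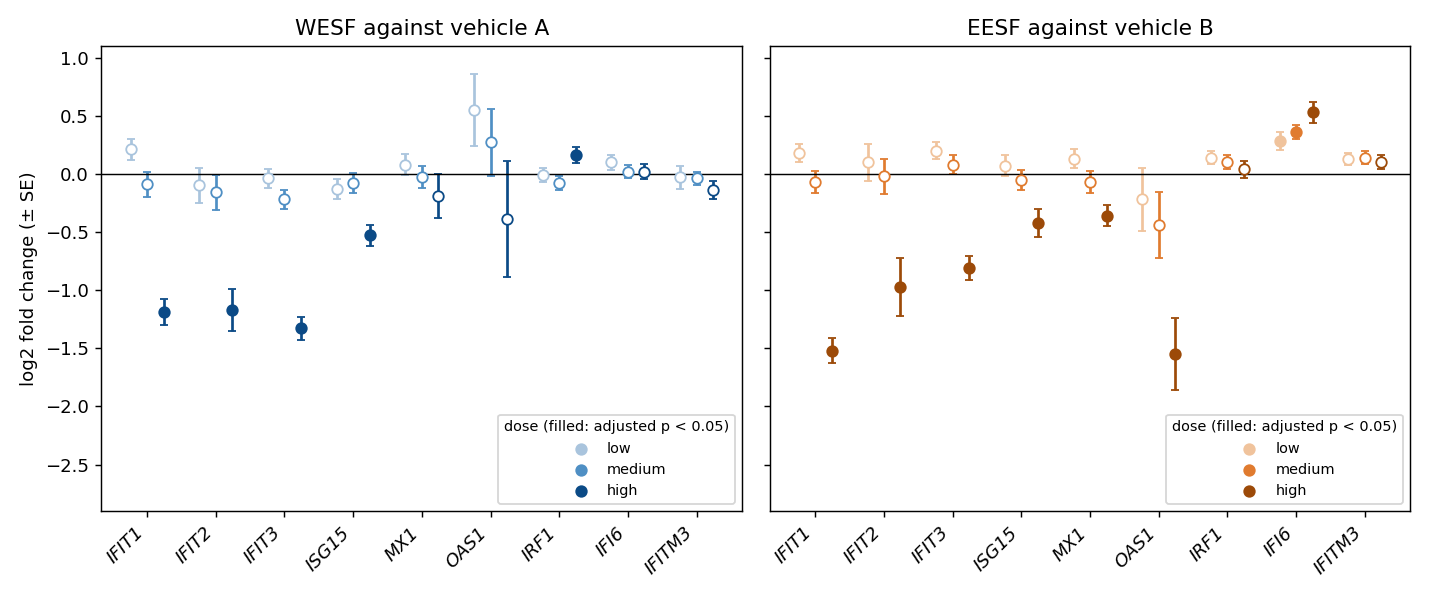
Log2 fold change against the vehicle of the batch (vertical axis, ± SE from the edgeR fit, 3 libraries per group) for the 9 genes at 3 doses of WESF and EESF. Filled points have an adjusted p under 0.05; the filled points below 0 are all from the high doses, and IFI6 is above 0 and filled at the 3 EESF doses.

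The falls appeared between the medium and the high dose. At the medium dose of WESF edgeR called none of the 9, where it called 4.10% of 13112 genes, and 1 of the 9, IFIT3, had an unadjusted p under 0.05 (log2 fold change -0.22, adjusted p = 0.13), as did 21.0% of all genes tested. At the low dose of WESF it called none of 13131 genes (0.00%), of which 470 (3.58%) had an unadjusted p under 0.05, IFIT1 the only one of the 9 (log2 fold change 0.21, adjusted p = 0.999). DESeq2 also called none of the 9 at these 2 doses. At the medium and low doses of EESF, 1 of the 9 was called, IFI6, where 15.4% and 9.35% of all genes tested were, 6.90% and 3.11% in the direction of IFI6. At the low dose of EESF 8 of the 9 had a log2 fold change above 0 (median 0.13, against 0.00 over all genes tested), the opposite sign to most of the high-dose values, and 5 of the 9 had an unadjusted p under 0.05 (IFIT1, IFIT3, IRF1, IFI6 and IFITM3), as did 26.3% of 12892 genes. IFIT1 gave 0.18 (SE 0.075, adjusted p = 0.133) and IFIT3 0.20 (SE 0.072, adjusted p = 0.0901) there. At the medium dose of EESF 2 of the 9, IFI6 and IFITM3, had an unadjusted p under 0.05, as did 30.4% of 12978 genes. Against the medium dose, the high dose of WESF lowered IFIT1 by a log2 fold change of -1.09, IFIT3 by -1.11 and ISG15 by -0.44, brought IFIT2 to 49.9% of its medium-dose level, and raised IRF1 by 0.24, the 5 members called there, against 67.6% of all genes tested. The same step of EESF gave -1.44 for IFIT1, -0.94 for IFIT2, -0.89 for IFIT3, -0.37 for ISG15, -0.29 for MX1 and -1.10 for OAS1, the 6 members called, against 50.9% of all genes tested. DESeq2 called 4 of these, without MX1 and OAS1 (adjusted p = 0.0655 for OAS1). The edgeR call of MX1 was also lost without replicate 1 of the high dose or replicate 3 of the medium dose (adjusted p up to 0.109), and that of OAS1 without replicate 1 of the medium dose.

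Over the 8 groups, the means of IFIT1 stood in the order EESF low (11.9 ± 0.243 CPM), WESF low (11.12 ± 0.8), vehicle B (10.42 ± 0.385), EESF medium (9.862 ± 1.1), vehicle A (9.683 ± 0.778), WESF medium (9.072 ± 1.48), WESF high (4.238 ± 0.405) and EESF high (3.628 ± 0.433 CPM, SD, n = 3 each). From EESF low to WESF medium, each neighbouring pair in that order differed by less than the larger SD of the pair, and both high doses lay well under them.

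The difference in response between the extracts was put to an interaction test over 12 libraries at each dose, which compares unequal mass doses in separate batches. At the high dose, 2 of the 9 were called, against 26.0% of 13376 genes. The EESF response minus the WESF response was 0.52 on the log2 scale for IFIT3 (SE 0.16, edgeR adjusted p = 0.0255) and 0.51 for IFI6 (SE 0.12, adjusted p = 0.0056). IFIT3 thus fell less with EESF, although this call was lost in 6 of the 12 fits that left out 1 library (adjusted p up to 0.0806), and IFI6 passed the test against the vehicle at each dose of EESF and at none of WESF. The difference for IFIT1 was -0.33 (SE 0.15, adjusted p = 0.122) and for OAS1 -1.16 (SE 0.7, adjusted p = 0.243), so the larger falls with EESF did not pass the test. For IFIT2 (0.20, SE 0.36), ISG15 (0.11, SE 0.17), MX1 (-0.17, SE 0.27), IRF1 (-0.12, SE 0.1) and IFITM3 (0.25, SE 0.12) the difference did not pass either. At the medium and low doses edgeR called none of the 9, where it called 0.203% and 0.00756% of all genes tested, and 2 of the 9 had an unadjusted p under 0.05 at each of these doses, as did 13.1% and 10.5% of all genes tested. DESeq2 also called none.

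The rest of the pathway is described from its ligands to its targets, with genes chosen by function and with earlier results of these data known. All counts are for the high doses unless another is named, and are to be read against the 34.3% of all genes called higher and 34.6% called lower with WESF, and the 29.3% and 28.7% with EESF. Of 10 interferon genes, 1 passed the count filter, IFNE, an epithelial type I interferon, which changed by -0.93 and -0.68 on the log2 scale under the high WESF and EESF doses (edgeR adjusted p = 0.000136 and 0.00235). IFNB1, the type I interferon that most cells make first, had no count in 21 of the 24 libraries and at most 1 count in any. IFNG, IFNL1 and IFNL3 were at 0 in all 24 libraries. IFNA1 was above 0 in 23 of the 24 but had at most 11 expected counts in any, and it did not pass the count filter. Of 6 receptor chains, 2 were called higher and 2 lower with WESF (median log2 fold change 0.05), and 1 each with EESF (median 0.06), shares near the background with WESF and below it with EESF. IFNAR1, a chain of the type I receptor, fell by 0.67 and 0.53 on the log2 scale (adjusted p = 1.05e-09 with WESF and 7.72e-06 with EESF). IFNLR1, the specific chain of the type III receptor, gave 0.71 with WESF (adjusted p = 0.0261), a call lost with DESeq2, with thinned counts and in 3 of 6 fits that left out 1 library (adjusted p up to 0.173).

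The 5 genes of the JAK-STAT relay reported here were all called higher at the high dose of WESF (median log2 fold change 0.29), where 34.3% of all genes were, and the call of IRF9 among them was not stable. STAT2, the subunit of ISGF3 that activates transcription, gave 0.96 with WESF (SE 0.048, edgeR adjusted p = 2.58e-11) and 0.42 with EESF (SE 0.058, adjusted p = 5.96e-05). IRF9, the DNA-binding subunit, gave 0.22 with WESF (adjusted p = 0.0436) and 0.05 with EESF (adjusted p = 0.641). Its WESF call was lost with DESeq2, with all genes of the table, with thinned counts and in 3 of 6 fits that left out 1 library, those without vehicle A replicate 2 or 3 and that without replicate 1 of the high dose, which gave 0.06 (adjusted p = 0.509). With EESF 2 of the 5 were called higher and 1 lower (median 0.05).

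Of 14 genes for nucleic acid sensing and interferon induction, 13 were tested, and 6 were called higher and 4 lower with WESF (median log2 fold change 0.22), 6 higher and 5 lower with EESF (median 0.27). That is 46.2% higher and 30.8% lower with WESF, and 46.2% and 38.5% with EESF. TLR3, the endosomal receptor for double-stranded RNA, fell by 1.54 on the log2 scale with WESF and by 1.57 with EESF (adjusted p = 3.84e-06 and 3.2e-05). IKBKE, a kinase that acts with TBK1 on IRF3, fell by 1.73 and 1.17 (adjusted p = 1.56e-09 and 3.63e-06). RIGI, the cytosolic RNA sensor, fell by 0.67 and 0.89 (adjusted p = 1.55e-06 and 2.71e-05), and its adaptor MAVS fell by 0.74 and 0.39 (adjusted p = 1.24e-09 and 0.000226). DHX58, a regulator of RIG-I-like sensing, rose by 1.18 and 0.82 (adjusted p = 3.96e-08 and 0.000868). IRF7, which amplifies type I interferon transcription, gave 0.36 (adjusted p = 0.0296, a call lost with DESeq2, with thinned counts and in 4 of 6 fits without 1 library) and 0.61 (adjusted p = 0.00049). Among 7 negative regulators tested of 8, none was called higher and 2 were called lower with WESF (median -0.27), and 1 higher and 3 lower with EESF (median -0.05). The share called lower was 28.6% with WESF, below the background, and 42.9% with EESF. At the medium and low doses of EESF 2 of the 7 were called higher, SOCS1 and SOCS3, inhibitors of JAK signalling named after their values were seen, and none lower, where 6.90% and 3.11% of all genes were called higher. SOCS1 gave log2 fold changes of 0.73 at the medium (adjusted p = 0.00764) and 0.81 at the low dose (adjusted p = 0.00693) but 0.00 at the high dose (adjusted p = 0.989), with means of 2.24 CPM in vehicle B, 3.948 at the low, 3.703 at the medium and 2.238 CPM at the high dose. SOCS3 gave 0.25, 0.29 and 0.33 at the medium, low and high doses. The ISG15 protease USP18 gave -0.28 with WESF (edgeR adjusted p = 0.0689, but as low as 0.0163 among the alternatives). With EESF USP18 fell by 0.50 (edgeR adjusted p = 0.0112, and 0.0556 without vehicle B replicate 1). TRIM21, an antibody receptor and ubiquitin ligase, fell by 0.64 with WESF (edgeR adjusted p = 4.99e-06). TRIM21 was also among the 3 called lower with EESF, a call lost with DESeq2, with thinned counts and in 2 of 6 fits without 1 library (adjusted p up to 0.145).

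The other interferon-stimulated genes, a list of 36 apart from the 9, were mostly lower. Like the 9, they were chosen with earlier results of these data known, so they are a description and no independent support. STAT2, DHX58 and GBP5, which rose, are counted on other lists. With WESF 35 were tested, 4 were called higher, 21 lower and 10 in neither direction, with a median log2 fold change of -0.35. With EESF 34 were tested, 2 were called higher, 23 lower and 9 in neither direction, with a median of -0.38. HERC6, a relative of the ISG15 ligase, fell by 1.41 on the log2 scale with WESF and by 1.34 with EESF (adjusted p = 9.73e-08 and 3.08e-06). SAMD9L, a restrictor of poxviruses, fell by 1.39 and 1.27 (adjusted p = 1.39e-10 and 6.6e-08). XAF1, a pro-apoptotic gene, fell by 0.96 and IFI44 by 0.92 with EESF (adjusted p = 1.4e-06 and 6.56e-07). Both were also called lower with WESF, at -1.22 to -0.95 for XAF1 and -0.96 to -0.88 for IFI44 in the fits that left out 1 library. With WESF, RTP4 fell by 1.33 and the mitochondrial nucleotide kinase CMPK2 fell by 1.77 (adjusted p = 5.85e-05 and 0.00266), the latter from 12 to 16 expected counts in vehicle A libraries and 1 to 5 at the high dose. RTP4 was called lower with EESF too, at -1.02 to -0.78 in the fits that left out 1 library. The genes called higher, named after their values were seen, were ADAR (0.21), PARP14 (0.22), IFITM1 (0.32) and ISG20 (0.66) with WESF, and IFITM1 (0.42) and IFITM2 (0.29) with EESF, where ADAR and PARP14 were called lower (-0.15 and -0.26). The IFITM1 call with WESF was lost with DESeq2 and without replicate 1 of that dose (0.14, adjusted p = 0.199), and that of ISG20 with DESeq2 (adjusted p = 0.0793) and without vehicle A replicate 2 (0.58). The IFITM2 call with EESF was lost without vehicle B replicate 3 or replicate 2 of the high dose (adjusted p up to 0.0719). The ADAR call with EESF was kept under 8 of 13 alternatives, and lost in 4 of the 6 that left out 1 library (adjusted p up to 0.113). At the medium and low doses, 3 and 0 of 35 were called lower with WESF and 4 and 1 of 35 with EESF, and none higher. The shares of all genes called lower there were 2.20% and 0.00% with WESF and 8.48% and 6.24% with EESF. By DESeq2 2 of these genes were called higher with WESF in place of 4.

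Targets of interferon-gamma and genes of the MHC class I pathway were called in both directions. Of 12 targets of interferon-gamma, 8 were tested, and 4 were called higher and 2 lower with WESF (median log2 fold change 0.18), 3 higher and 2 lower with EESF (median -0.02). GBP5, an inflammasome-linked GTPase, rose by 1.67 on the log2 scale with WESF and by 1.00 with EESF (adjusted p = 7.68e-08 and 0.000298). Its relative GBP1 fell by 0.81 and 0.91 (adjusted p = 9.55e-09 and 1.01e-06). GBP4 rose by 0.81 and CIITA, the activator of MHC class II genes, fell by 0.91 with WESF (adjusted p = 4.6e-06 and 1.81e-07). With EESF CIITA was called lower as well, at -0.48 to -0.39 in the fits that left out 1 library, and GBP4 was not called. Of 17 genes of MHC class I antigen presentation, 6 were called higher and 2 lower with WESF (median 0.03), 8 higher and 2 lower with EESF (median 0.13). The share called higher was 35.3% with WESF, close to the 34.3% over all genes, and 47.1% with EESF, against 29.3%. Of these, named after their values were seen, the peptide transporter TAP1 gave 0.57 and 0.38, HLA-E 0.48 and 0.49, and NLRC5, the activator of MHC class I genes, -0.53 and -0.39. Reads of the HLA genes can be split between close relatives.

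**Figure D3:**
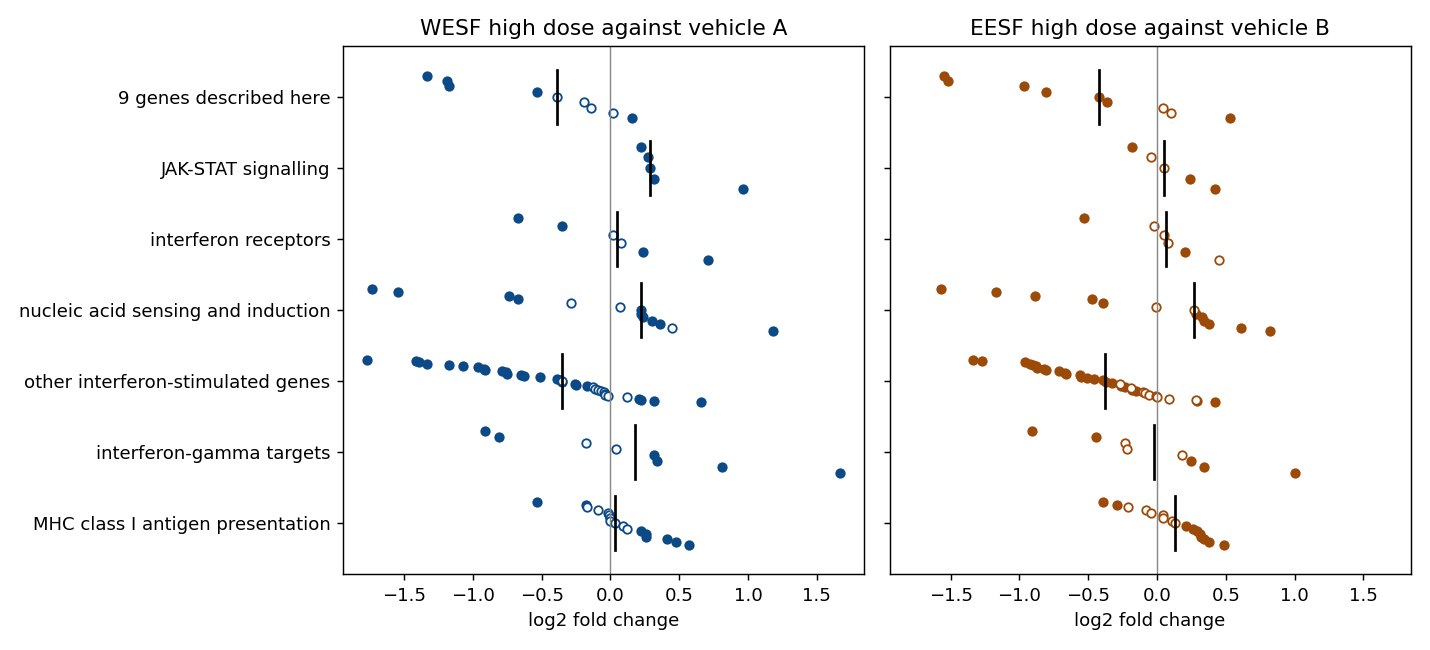
Log2 fold change (horizontal axis) of the high WESF and EESF doses, each against its own vehicle, one point per gene, for the 9 genes and 6 other lists of the pathway. Filled points have an adjusted p under 0.05 and black lines are list medians; the medians of the 9 genes (-0.39 and -0.42) and of the other interferon-stimulated genes (-0.35 and -0.38) lie below 0, and that of JAK-STAT signalling with WESF (0.29) lies above it.

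Genes known as markers of other cell types moved at the same doses. Of 7 microglia or macrophage markers, 2 averaged at least 1 CPM, with PTPRC the most abundant (mean 7.464 CPM) and TYROBP at 0 in every library. Their summed level was 13.34 to 14.4 CPM in vehicle A, 3.473 to 3.811 CPM at the high dose of WESF, 12.89 to 13.97 CPM in vehicle B and 3.489 to 4.25 CPM at the high dose of EESF. Of 4 neuron markers, 2 averaged at least 1 CPM, with SNAP25 the most abundant (mean 24.34 CPM), and the summed level was 51.5 to 55.54 CPM in vehicle A, 21.99 to 24.39 CPM at the high dose of WESF, 55.47 to 57.11 CPM in vehicle B and 24.0 to 28.81 CPM at the high dose of EESF. SNAP25 and SYT1 were called lower at both high doses. RBFOX3 was called higher with WESF, by a log2 fold change of 2.60. Its expected counts were 2 to 4 in vehicle A and 12 to 18 in the treated libraries. RBFOX3 did not pass the count filter with EESF against vehicle B. With WESF it passed through its treated libraries, since 3 neuron markers were tested for that dose and 2 for each lower dose. A gene this low in the vehicle is tested only where it rises, so its call cannot be weighed against the falls of SNAP25 and SYT1. The 4 oligodendrocyte markers, of which MBP led and MOG was at 0 in every library, summed to 6.738 to 7.668 CPM in vehicle A and 11.39 to 14.14 CPM with WESF, and to 6.547 to 7.315 CPM in vehicle B and 9.649 to 10.19 CPM with EESF. The 4 epithelial markers, led by KRT18 (mean 105.9 CPM), summed to 133.1 to 150.1 CPM in vehicle A and 62.13 to 66.72 CPM with WESF, and to 125.9 to 136.0 CPM in vehicle B and 80.52 to 100.6 CPM with EESF. The sum follows KRT18, called lower at both high doses (log2 fold change -1.42 and -0.67), whereas KRT8 was called higher (0.20 and 0.31). The 4 endothelial markers, led by PECAM1 (mean 0.7808 CPM), summed to 1.168 to 1.29 CPM in vehicle A and 0.4235 to 1.007 CPM with WESF, and to 0.8932 to 1.65 CPM in vehicle B and 0.8627 to 0.9543 CPM with EESF. PECAM1, the one tested, was called lower at the high and the medium dose of WESF (log2 fold change -0.76 and -1.05, edgeR adjusted p = 0.0418 and 0.0458) and at no dose of EESF. Of the glioma markers, VIM, the most abundant, was called at neither high dose, and SLC1A3, SOX9, NES and CD44 were called lower at both. The part of these changes in the interferon-stimulated gene results was not tested.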

How the data were processed

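The authors trimmed reads with Trim Galore 0.6.6 after FastQC 0.11.9, aligned them to GRCh38 with STAR 2.7.9a (the methods write GRCh38 (hg19)) and counted genes with RSEM 1.3.3 on Ensembl annotation 84, and they deposited expected counts without normalization. Their strand setting is not given in the sources used here. RSEM divides reads that match several genes, and 10.9% of values are not whole. Symbols and positions came from GENCODE 44 (56558 of 60675 genes matched) and promoters from RefSeq.

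Expected counts were rounded. Protein-coding genes that passed filterByExpr were fitted on the libraries of each comparison with edgeR 4.0.16 (TMM, quasi-likelihood test, 2-sided, Benjamini-Hochberg over all genes tested) in R 4.3.3. A gene was called at an adjusted p under 0.05, and a DEG also had a change of over 1.5-fold (log2 0.585). Comparisons were of each dose with its own vehicle, of high with medium doses, and of the extracts by an interaction. The study used DESeq2, here (1.42.0) an alternative, beside DESeq2 size factors, no filter, all genes, thinned counts, a joint fit of each batch, replicate blocks and leaving out each library. The scripts were tested on simulated data.

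The 9 genes, the lists of ligands, receptors, JAK-STAT, sensing, regulator, interferon-stimulated, interferon-gamma and MHC genes, and the cell type markers were chosen with earlier results of these data known. From each pathway list the text names up to 4 DEGs per extract by the size of the fold change, plus STAT2, IRF9, IRF7, IFNB1 and USP18, and says where others were named after their values were seen. A gene of the JAK-STAT list is not reported here. The 3 most similar genes of a member had the highest Pearson r over 24 libraries among 12248 genes with a mean of at least 1 CPM. Libraries of a group varied beyond sampling noise (chi-square per degree of freedom 2.046 to 14.057), so sampling noise alone does not give their spread. Genes with few counts, such as OAS1 and CMPK2, are also limited by depth.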

Additional observations from a re-analysis of the deposited data

Results flagged for a closer look

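IFIT3 responded differently to the high doses of the extracts. Its EESF response minus the WESF response was 0.52 on the log2 scale (edgeR interaction test, SE 0.16, adjusted p = 0.0255), from log2 fold changes of -1.33 with WESF and -0.81 with EESF, each lower in 3 of 3 libraries than in every vehicle library of its batch.

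IFI6 also differed at the high dose, by 0.51 (SE 0.12, adjusted p = 0.0056), with log2 fold changes of 0.02 for WESF and 0.53 for EESF. This call held in all 12 fits that left out 1 library (0.41 to 0.59), while that of IFIT3 was lost in 6 of them. Extract, mass dose and batch cannot be told apart in either difference.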

How the results depend on the processing

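The falls of IFIT1, IFIT2, IFIT3 and ISG15 at both high doses, and those of MX1 and OAS1 and the rise of IFI6 at the high dose of EESF, kept their direction and their call under all 13 alternatives each. Under DESeq2, 2 in place of 4 of the other interferon-stimulated genes were called higher at the high dose of WESF. Fitting all groups of batch B together left 0 of the 9 genes called at the low dose of EESF in place of 1. Leaving out 1 library at a time gave 0 to 3 there (3 without vehicle B replicate 1), 5 to 8 for the high against the medium dose of WESF (8 without replicate 1 of the high dose, 5 with all libraries), 1 to 3 for the difference between extracts at the high dose (2 with all libraries) and 0 to 1 at the medium dose (1 without vehicle B replicate 1), and 1 to 3 other interferon-stimulated genes called higher at the high dose of EESF (1 without vehicle B replicate 3 or without replicate 2 of the high dose). Signs that turned belonged to values near 0 or to OAS1. At the high dose of WESF, leaving out 1 library gave log2 fold changes of -1.88 to 0.03 for OAS1 (0.03 without replicate 2) and -0.03 to 0.09 for IFI6 (-0.03 without replicate 1, -0.01 without replicate 3) and -0.18 to 0.10 for IFITM2 (0.10 without replicate 2, 0.02 without vehicle A replicate 2), and at the high dose of EESF -0.00 to 0.10 for IRF1 and -0.03 to 0.11 for IRF9 (both lowest without replicate 3). IFITM3 passed the test at the high dose of WESF without vehicle A replicate 3 (-0.22, adjusted p = 0.0128). The cause of these changes was not tested. Replicate numbers did not pair the samples, since same-numbered libraries correlated between -0.077 and 0.08 in their deviations. With the replicate block, 5 and 7 of the 9 were called at the high doses of WESF and EESF, as without it, and 6 in place of 5 between the high and the medium dose of WESF. With 2 to 31 expected counts in a library, OAS1 is limited by depth.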

Other observations

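For each of the 9 genes, the 3 protein-coding genes with the most similar profile were listed by Pearson r of log2 CPM over the 24 libraries, among 12248 genes. The libraries share 2 vehicles and their depths, and a large part of all genes changed at the high doses, so these r are descriptions only. IFIT1 was closest to TENT5A (0.98), TCF19 (0.97) and ENC1 (0.96), and IFIT3 to PRXL2B, NXN and HPS1 (0.98 each), none of which is on the interferon lists. IFIT2 was closest to EPSTI1 (0.95) and OASL (0.93), both on the list of other interferon-stimulated genes, and then to ACAT2 (0.93). The nearest profile to MX1 was that of OAS2 (0.85) and the nearest to OAS1 that of OAS3 (0.84), members of the same gene family as OAS1. IFITM3 was closest to GPX4 (0.90), SH3BGRL3 (0.90) and IFITM2 (0.89), and reads can be divided between IFITM3 and IFITM2. ISG15 was closest to COMMD1 (0.95), IRF1 to OGFR (0.83) and IFI6 to B3GNT9 (0.92).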
